A study of Sus scrofa with 40 samples.

Results

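The comparison described here is the difference between 2 lines of pigs in liver while both ate freely. It uses 10 of the 40 arrays of the study, chosen by their titles as the ad libitum liver arrays: 5 from the low residual feed intake (RFI) line and 5 from the high RFI line. RFI is the feed an animal eats beyond what its growth and maintenance predict, so the low RFI line is labelled as the line of high feed efficiency. All pigs were prepubertal Yorkshire gilts of 6 months, and the labels give all of them as selected by their genotype at MC4R, the melanocortin receptor that controls appetite, most stating that heterozygous animals were taken. The study had 20 gilts, 10 of each line, and gave each gilt 8 days of feed either ad libitum or at 80% of maintenance. Liver and backfat were then measured on Affymetrix porcine arrays, giving 8 groups of 5. The restricted livers and the ad libitum backfat are used below only to show where the ad libitum liver difference recurs. With 10 gilts of each line split over 2 diets, each of the 10 arrays stands for a different gilt. The labels do not say how the gilts were related or which liver and backfat arrays share a gilt.

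The liver carries out much of the metabolic work of the body. It makes glucose, fat, plasma proteins and bile acids, breaks down amino acids, clears drugs and hormones, and through its resident macrophages, the Kupffer cells, removes debris and microbes from portal blood. Lines selected on feed efficiency can differ in liver through any of these functions, and the comparison asks which liver transcripts differ between the lines when feed is not limiting.

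The 10 arrays had medians of 127 to 153. Their deposited intensities had a trimmed mean of 500.13 to 500.15 on each array. The scaling of each array by MAS5, named in the processing notes, sets that level, so it does not measure how alike the arrays were. Hepatocyte markers had a mean log2 level of 14.41 ± 0.0602 (SD, n = 5) in the low line and 14.36 ± 0.143 (SD, n = 5) in the high line, and 0 of 11 skeletal muscle markers on the array passed the filter on low values. Arrays numbered 1 and 2 stood apart from arrays numbered 3 to 5 in both lines: their 3′ to 5′ ratio of the actin control was 1.89 to 2.55 on the log2 scale against 1.18 to 1.54. The same ratio of the GAPDH control did not separate them, at 0.98 to 1.2 against 0.7 to 1.29. Each line holds 2 arrays of the first kind and 3 of the second. Of 11 measures of control ratios, signal and cell type markers, the smallest exact two-sided permutation p between the lines was 0.214, where 0.00794 is the smallest possible.

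No transcript passed the test. Of 15677 probe sets measured above the filter, 0 (0%) reached an adjusted p under 0.05 for low against high RFI by limma with Benjamini-Hochberg adjustment, and the smallest adjusted p was 0.198. At an unadjusted p under 0.05 there were 786 probe sets (5.01%), of which 422 (2.69%) were higher and 364 (2.32%) lower in the low line. In this fit, which has 20 arrays and no block, each of 20 bins of unadjusted p of width 0.05 held 746 to 824 probe sets. With the replicate number as a block the adjusted count was again 0, the smallest adjusted p was 0.0696, and 1219 probe sets (7.78%) had an unadjusted p under 0.05, of which 572 (3.65%) were lower in the low line. With the block and the 10 ad libitum arrays alone 1621 did so (10.3%), and with numbers 1 and 2 only 1473 (9.4%). Leaving out low RFI gilt 1, 2, 4 or 5 left 1 probe set past the adjusted threshold each time, and no other array left out did so. The values of the 5 low RFI and the 5 high RFI gilts did not overlap at 184 probe sets (1.17%), 96 with the low line above and 88 with it below. Differences past 2-fold were measured at 159 probe sets (1.01%), 86 up and 73 down, and the median standard error of a difference was 0.213 on the log2 scale. The genes below are therefore given as values and not as changes between the lines.

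**Figure D1:**
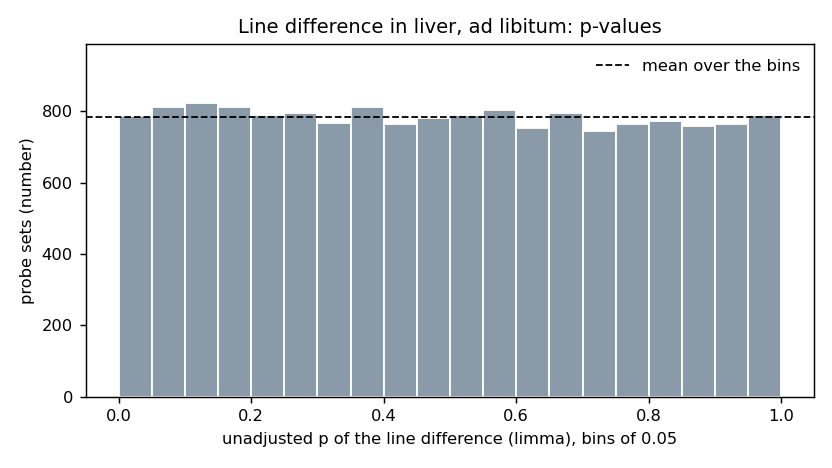
Number of probe sets (vertical axis) in each bin of unadjusted limma p-value (horizontal axis, bins of 0.05) for low against high RFI liver fed ad libitum, n = 5 gilts of each line. The 20 bins hold 746 to 824 probe sets, the first bin (p under 0.05) holds 786, and the dashed line is the mean of 784.

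The named genes with the smallest p-values had different roles, and their values follow by role. GPNMB encodes a membrane glycoprotein of macrophages and other cells rich in lysosomes. Its intensity was 579, 682, 718, 723 and 832 in the low RFI gilts and 1026, 1050, 1116, 1342 and 1420 in the high RFI gilts. Every low RFI value lay under every high RFI value. The difference of low minus high was -0.75 on the log2 scale (SE 0.147, 1.68-fold; limma unadjusted p 4.73e-05, adjusted p 0.198). A less bright probe set of GPNMB, picked out after its values were seen, gave -0.47 (SE 0.171) with overlapping groups, and the dimmest gave -0.13 (SE 0.374).

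ACP5 encodes tartrate-resistant acid phosphatase, a lysosomal enzyme of osteoclasts and macrophages. It measured 247, 437, 522, 528 and 565 in the low line and 725, 820, 947, 959 and 1332 in the high line, again without overlap. The log2 difference was -1.08 (SE 0.249; limma adjusted p 0.43), and the adjusted p was 0.0696 with the replicate block and 0.0425 with a term for numbers 1 and 2 against 3 to 5. The marker list of macrophages and Kupffer cells, which holds neither gene, had 9 of 12 tested members below 0 and a median of -0.18. Of the 12, 0 had an unadjusted p under 0.05, and 2, C1QA and C1QC, did so with the replicate block. Its mean log2 level per array was 10.23 to 10.71 in the low line and 10.44 to 10.78 in the high line (exact two-sided permutation p 0.214). The part of macrophage content in the GPNMB and ACP5 values was not tested, and in whole liver fewer cells of a type and less RNA per cell cannot be told apart.

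PON3 encodes a paraoxonase, a liver enzyme that hydrolyses lactones and is carried in blood on high-density lipoprotein. The low RFI gilts gave 968, 1059, 1277, 1288 and 10288, and the high RFI gilts 5857, 7399, 10633, 12110 and 13098. A single low RFI gilt, number 4, lay within the high line, and the other 4 were below every high RFI gilt. The difference was -2.41 (SE 0.502, 5.31-fold; limma adjusted p 0.249). Without low RFI gilt 4 it was -3.04 (limma adjusted p 0.000333), and with numbers 1 and 2 alone -3.64 (adjusted p 0.000121). The other paraoxonase tested, PON2, measured 0.25 (SE 0.135; limma adjusted p 0.962), so the 2 tested members of this list had opposite signs.

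Genes of sugar and amino acid handling followed. ADPGK, a glucokinase that uses ADP in place of ATP, measured 314, 328, 359, 391 and 422 in the low line and 483, 526, 611, 637 and 704 in the high line. The groups did not overlap, at -0.70 (SE 0.149; limma adjusted p 0.249). BCAT1, the cytosolic aminotransferase of branched-chain amino acids, measured 59.6, 68.2, 89.5, 108 and 124 in the low line against 134, 154, 159, 177 and 195. It differed by -0.91 (SE 0.211, limma adjusted p 0.435), also without overlap. Its signal was low: each low RFI value lay under the median of its array, and the probe set did not pass the stricter filter on low values. SLC7A9, the light subunit of an intestinal and renal transporter of cystine and basic amino acids, was named from the list of solute carriers. It is not among the 20 named genes with the smallest p. It measured 233, 263, 310, 357 and 375 in the low line and 53.5, 114, 146, 169 and 195 in the high line. The difference was 1.29 (SE 0.409; limma unadjusted p 0.00485, adjusted p 0.837) without overlap. The high RFI values of 53.5 and 114 lay under the median of their array.

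Signalling genes were found on both sides. ARL3, a small GTPase of protein transport to cilia, measured 1721, 1828, 1924, 2156 and 2294 in the low line and 780, 844, 969, 1366 and 1632 in the high line. The low line lay above without overlap, by 0.88 (SE 0.188; limma adjusted p 0.249). FGF13, an intracellular member of the fibroblast growth factor family that binds sodium channels, measured 409, 564, 766, 1041 and 1066 in the low line and 82.3, 143, 157, 179 and 502 in the high line. The difference was 2.04 (SE 0.483; limma adjusted p 0.448), and 1 high RFI gilt lay within the low line. RORA, a nuclear receptor that drives clock genes, measured 705, 1158, 1205, 1320 and 1672 against 522, 554, 610, 663 and 761, a difference of 0.92 (SE 0.238; limma adjusted p 0.566) with 1 low RFI gilt within the high line. CCL4, a chemokine that attracts lymphocytes and monocytes, measured 379, 401, 573, 594 and 626 against 738, 791, 796, 858 and 930. That is -0.70 (SE 0.182; limma adjusted p 0.566) without overlap.

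**Figure D2:**
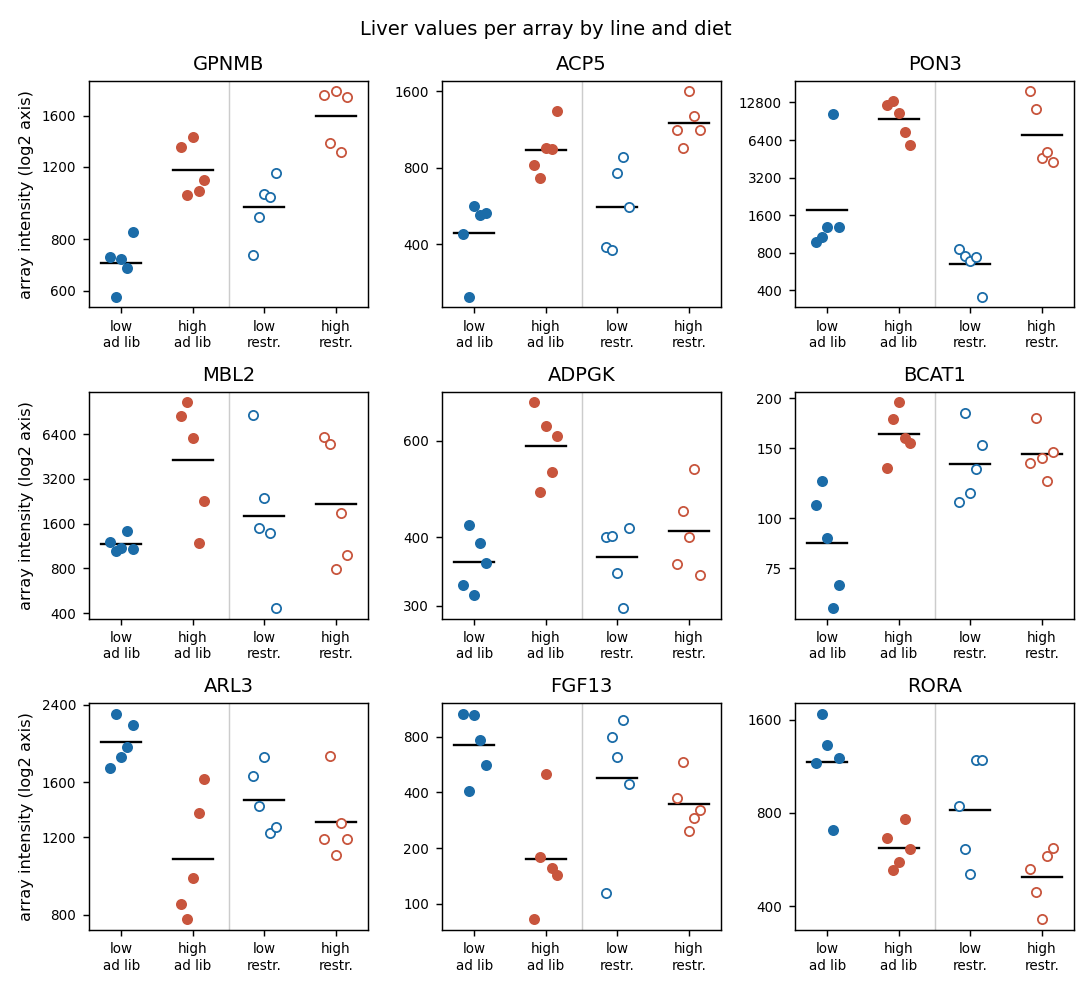
Deposited array intensity (vertical axes, log2 scale, each panel with its own range) of 9 genes in liver of low RFI (blue) and high RFI (red) gilts fed ad libitum (filled) or restricted (open), 5 arrays a group; the bar is the mean of the log2 values. GPNMB and ACP5 separate the lines in both diets, PON3 does so but for low RFI gilt 4 at 10288, and ADPGK, BCAT1 and ARL3 separate them in the ad libitum gilts.

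Among the 20 named genes with the smallest p, CALR, ST5 and CAST also differed by more than 1 log2 unit. CALR encodes calreticulin, the calcium-binding chaperone of the endoplasmic reticulum. It measured 479, 522, 527, 830 and 844 in the low line and 740, 2392, 2422, 4289 and 4603 in the high line, so that 4 of 5 high RFI gilts lay above all low RFI gilts. The difference was -1.97 (SE 0.552; limma adjusted p 0.788), and -0.67 with numbers 1 and 2 against -2.83 with numbers 3 to 5. The other members of its list did not share that size: of 18 chaperones and unfolded protein response genes tested, CALR was the only one with an unadjusted p under 0.05, and the median was -0.10. ST5, a DENN-domain protein, measured 56.9, 67.2, 118, 152 and 164 against 259, 291, 294, 320 and 400, or -1.60 (SE 0.445, limma adjusted p 0.788) without overlap. Most of its low RFI values lay under the median of their array.

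CAST encodes calpastatin, the inhibitor of the calpain proteases. Its brightest probe set measured 1016, 1066, 1399, 1574 and 1741 in the low line and 315, 327, 346, 729 and 1627 in the high line. The difference was 1.32 (SE 0.388; limma adjusted p 0.788), with high RFI gilt 1 inside the low line. Its other 3 probe sets, picked out after their values were seen, measured 1.09, 1.04 and 0.31.

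The remaining 8 of the 20 named genes with the smallest p differed by less than 1 log2 unit. SNRNP200, a helicase of the spliceosome, measured -0.60 (SE 0.164) and S100A11, a calcium-binding protein, -0.58 (SE 0.168), both without overlap. BAG1, a partner of the HSP70 chaperones, measured -0.45 (SE 0.135), PLEKHJ1 -0.43 (SE 0.103), COLGALT1, which adds galactose to collagen, -0.42 (SE 0.119), and SS18L2 -0.41 (SE 0.123), all 4 without overlap. A less bright probe set of BAG1, picked out after its values were seen, measured -0.64 (SE 0.201) with overlapping groups. BTBD3 measured 0.62 (SE 0.175) and TMEM167B 0.43 (SE 0.128), with overlapping groups. Adjusted p-values in limma were 0.448 for PLEKHJ1 and 0.788 to 0.803 for the others.

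The pigs on the restricted diet gave a second set of 10 livers with no array in common, although both comparisons came from 1 fit and share its estimate of spread. All 20 of the named genes with the smallest ad libitum p had the same sign there, and 6 of them had an unadjusted p under 0.05 in limma. Of the 100 probe sets with the smallest ad libitum p, 85 had the same sign, as did 530 of 786 (67.4%) at an unadjusted p under 0.05 and 8425 of 15677 (53.7%) overall. GPNMB was -0.74 (SE 0.147) under restriction and ACP5 -1.09 (SE 0.249), as far apart as when fed freely. BTBD3 was 0.57 (SE 0.175), RORA 0.72 (SE 0.238) and PLEKHJ1 -0.34 (SE 0.103).

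PON3 passed the test in the restricted livers, where it was lower in the low line. Low RFI gilts measured 352, 683, 743, 752 and 861 and high RFI gilts 4235, 4606, 5155, 11280 and 15726, with no overlap. The difference was -3.45 (SE 0.502; limma adjusted p 0.0125). It was 1 of 3 probe sets (0.0191%) past the threshold there, beside HGSNAT, a lysosomal enzyme of heparan sulphate breakdown, at -2.70 and an unnamed probe set, Ssc.29500.1.A1_at, at 2.27 (limma adjusted p 0.0443 and 0.013), both picked out after their values were seen. In the ad libitum livers HGSNAT measured 44.4, 178, 197, 206 and 248 in the low line and 161, 214, 234, 404 and 554 in the high line, with overlap. Ssc.29500.1.A1_at measured 175, 245, 281, 361 and 466 against 69.9, 114, 118, 143 and 196, where only 1 low RFI gilt lay inside the high line. Under restriction 750 probe sets (4.78%) had an unadjusted p under 0.05 and 115 (0.734%) had groups that did not overlap.

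Only 5 probe sets had non-overlapping lines in the same direction in both diets, and 0 in opposite directions: GPNMB, ACP5, PLEKHJ1, SLC7A9 and DNPEP, an aminopeptidase that was picked out after its values were seen. SLC7A9 measured 1.44 (SE 0.409) in restricted livers. Other genes lay closer together under restriction: BCAT1 measured -0.08 (SE 0.211), ADPGK -0.15 (SE 0.149), ARL3 0.17 (SE 0.188), ST5 -0.23 (SE 0.445) and FGF13 0.46 (SE 0.483). The test of whether the line difference differed between the diets called none of 15677 probe sets (limma smallest adjusted p 0.999). At an unadjusted limma p under 0.05 there were 525 (3.35%). The unadjusted limma interaction p was 0.0114 for BCAT1, 0.0144 for ARL3 and 0.0161 for ADPGK. These genes were named for their small ad libitum p, and the interaction contains that same ad libitum difference. Their interaction p-values and their smaller values under restriction are therefore not independent of how they were chosen.

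**Figure D3:**
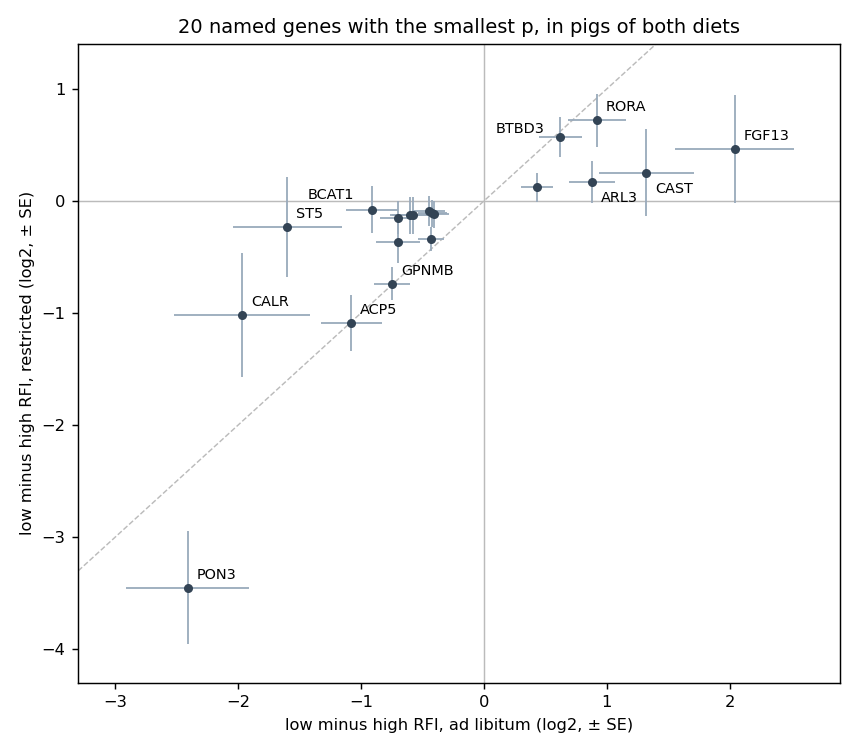
Low minus high RFI in ad libitum liver (horizontal axis, log2) against the same in restricted liver (vertical axis, log2) for the 20 named genes with the smallest ad libitum p; bars are ± SE and the dashed line marks equal differences. All 20 share their sign; GPNMB and ACP5 lie on the line, PON3 beyond it, and BCAT1 and ST5 near 0 on the vertical axis.

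In backfat of ad libitum gilts, 591 of 15498 probe sets (3.81%) had an unadjusted p under 0.05 and 2 passed the adjusted threshold in limma. With 20 gilts and 20 arrays of each tissue, these arrays come from the same gilts as the ad libitum livers. Unlike the restricted livers, they are not a second set of animals. Of the 20 named genes with the smallest p in liver, 14 had the same sign in backfat, as did 500 of the 707 probe sets at an unadjusted p under 0.05 in liver that were measured in both tissues and 8020 of 14001 overall. The test of liver against backfat called none of the 14001 probe sets measured in both tissues (limma smallest adjusted p 0.966), with 347 (2.48%) at an unadjusted p under 0.05. CALR measured -1.51 in backfat (SE 0.377), S100A11 -0.42 (SE 0.155) and ADPGK -0.59 (SE 0.207), each with the sign seen in liver. BCAT1 at 0.37 (SE 0.573), ST5 at 0.20 (SE 0.23) and BTBD3 at -0.11 (SE 0.134) had the opposite sign. PON3 measured -0.88 (SE 0.294) there. FGF13, at 2.04 in liver, measured -0.39 (SE 0.283) in backfat. The unadjusted limma p was 0.000186 for the line difference in liver against that in backfat, in the fit without a term for the gilt. FGF13 was named for its small p in liver, which enters that test, so this p is no separate support.

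Some probe sets without a gene symbol had p-values as small. Ssc.26514.1.A1_at read 49.7, 51.5, 58.6, 91.6 and 7322 in the low line and 2739, 3665, 4671, 4860 and 5970 in the high line. Low RFI gilt 2 therefore stood above every high RFI gilt while the other 4 were below every one. The difference was -4.74 (SE 1.12; limma adjusted p 0.448), and -6.12 (adjusted p 0.00324) without that gilt. In restricted livers the low line gave 80.1, 151, 203, 2214 and 4188 and the high line 2382, 2573, 2899, 5333 and 6480, so that 2 low RFI gilts lay in or near the range of the high line. Ssc.7706.1.A1_at read 134, 255, 572, 692 and 1172 against 42.9, 66.1, 81.3, 81.5 and 155, a difference of 2.48 (SE 0.484; limma adjusted p 0.198) with 1 overlapping pair, and 2.56 (SE 0.688) in backfat. Without low RFI gilt 5 it was 2.91 (limma adjusted p 0.0298).

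Ssc.835.1.S1_at measured 2.11 (SE 0.458) in ad libitum liver, -0.54 (SE 0.458) in restricted liver and 1.69 (SE 0.421) in ad libitum backfat. Ssc.8679.1.A1_at measured 1.18 (SE 0.253) and Ssc.9726.1.A1_at -0.93 (SE 0.185), both without overlap (limma adjusted p 0.249 and 0.198). The smallest p of all, 3.65e-05, belonged to Ssc.19471.1.A1_at, which carries more than 1 symbol and was picked out after its values were seen. It read 1008, 1816, 1863, 2185 and 2540 in the low line and 697, 702, 751, 784 and 868 in the high line, a difference of 1.25 (SE 0.24; limma adjusted p 0.198), and measured -0.36 (SE 0.24) under restriction and -1.94 (SE 0.706) in backfat. Without low RFI gilt 1 it was 1.46 (limma adjusted p 0.0287).

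Gene lists are described by counts, each gene by its brightest probe set, beside the 288 of 5723 named genes with an unadjusted p under 0.05 (110 higher and 178 lower in the low line). Of the 5723 named genes 3154 were below 0 and 2569 above 0, with a median of -0.02. No member of any of the 46 lists passed the adjusted threshold. In antigen presentation by MHC class I, which displays peptides of the cell to T cells, 12 of 14 tested genes were below 0, with a median of -0.32. In the low line 4 were lower at an unadjusted p under 0.05, namely CALR, PSMB8, TAPBP and PSME2. With the replicate block 5 were lower at that level. PSMB8, a subunit of the immunoproteasome, measured 548, 735, 829, 868 and 959 in the low line and 1134, 1163, 1173, 1266 and 1283 in the high line, without overlap, at -0.64 (SE 0.225; limma adjusted p 0.871). TAPBP, which loads peptides on class I, measured -0.33 and PSME2, a proteasome activator subunit, -0.30 (both named after their values were seen). The median of the list was 0.00 under restriction, and PSMB8 measured 0.01 (SE 0.225) there. Class I genes are near copies of one another, so a probe set can read more than 1 of them.

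In MHC class II presentation 10 of 15 genes were below 0, with 3 at an unadjusted p under 0.05, all lower in the low line, and a median of -0.13. The median of the list was -0.19 under restriction. SLA-DRB1, a class II chain, measured 1511, 1594, 1700, 1967 and 3023 against 2267, 2280, 3522, 3839 and 4044, or -0.71 (SE 0.268; limma adjusted p 0.935), with 1 low RFI gilt inside the high line. It measured 0.52 (SE 0.268) under restriction. Ssc.210.7.S1_x_at shares the ID stem of the SLA-DRB1 probe set, Ssc.210.1.S1_a_at, but carries no single symbol. Picked out after its values were seen, it measured -3.45 (SE 0.851, limma adjusted p 0.55) without overlap. It was -1.27 (SE 0.851) under restriction and -2.43 (SE 0.713) in backfat. Whether both probe sets read the same gene was not tested. CD74, the invariant chain, measured -0.61 (SE 0.275) with overlap. Of 25 cytokines, chemokines and innate receptors 19 were below 0 and 3 had an unadjusted p under 0.05, again all lower: CCL4, CCL5 at -0.41 and TNF at -0.85 (TNF named after its value was seen). The median was -0.12, and 0.01 under restriction.

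Innate plasma and lysosomal genes had small medians. Of 24 complement genes 19 were below 0, with a median of -0.07 and 1, MBL2, at an unadjusted p under 0.05. With the replicate block 3 did so, MBL2 and the C1q chains C1QA at -0.44 and C1QC at -0.35. MBL2, the mannose-binding lectin that starts the lectin pathway, stood apart in size: it read 1049, 1076, 1102, 1207 and 1437 in the low line and 1190, 2273, 6026, 8476 and 10461 in the high line. The low RFI gilts were all near one level and the high RFI gilts spread over several, at -1.88 (SE 0.681; limma adjusted p 0.901). In restricted livers the low line spread as well, from 431 to 8568, and the difference was -0.29 (SE 0.681). Of 28 lysosomal enzymes and membrane proteins 21 were below 0, with a median of -0.13 and 1 at an unadjusted p under 0.05: CTSB, the protease cathepsin B, at -0.18. With the replicate block 5 of the 28 had an unadjusted p under 0.05, all lower: CTSB, the proteases CTSD at -0.28 and CTSZ at -0.34, GRN, the precursor of granulins, at -0.33, and ATP6V0D1, a proton pump subunit, at -0.25 (the last 4 named after their values were seen). T cell and NK cell markers had 9 of 11 below 0 (median -0.18) and hepatocyte markers 19 of 21 above 0 (median 0.08), with 0 members of either at an unadjusted p under 0.05 (with the block, 1 hepatocyte marker, TAT, at -0.47). The mean log2 level of T cell and NK cell markers was 7.24 to 7.56 per array in the low line and 7.02 to 7.98 in the high line (exact permutation p 0.294). Their part in the MHC and chemokine values was not tested.

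Cell cycle and clock genes lay on the other side. Of 17 cell cycle genes 15 were above 0, with a median of 0.30, and 3 had an unadjusted p under 0.05, all higher in the low line. NUSAP1, a spindle protein, measured 432, 486, 528, 626 and 1060 against 307, 321, 348, 400 and 478, or 0.70 (SE 0.234; limma adjusted p 0.839). TOP2A, the topoisomerase of dividing cells, measured 160, 231, 237, 351 and 368 against 134, 146, 150, 185 and 213, or 0.66 (SE 0.251), and BIRC5, a mitotic survival factor named after its value was seen, 0.57. The groups of both NUSAP1 and TOP2A overlapped. The median was 0.08 with the stricter filter on low values and 0.04 in restricted livers. Of 8 clock genes 7 were above 0, with a median of 0.37. RORA and PER1, a repressor in the clock, at 0.43, had an unadjusted p under 0.05, while the median was -0.02 under restriction. The labels do not give the hour of sampling.

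Hormone genes gave single members rather than whole lists. Of 18 genes of glucocorticoid and thyroid hormone handling 2 had an unadjusted p under 0.05, PER1 and FKBP5, a co-chaperone induced by glucocorticoids. With the replicate block 2 were higher and 1 lower at that level. FKBP5 measured 718, 877, 952, 1071 and 1516 in the low line and 350, 433, 442, 465 and 947 in the high line, with high RFI gilt 1 inside the low line. The difference was 1.01 (SE 0.329; limma adjusted p 0.837), and -0.14 (SE 0.329) under restriction. In the growth hormone and IGF axis, 2 of 15 genes had an unadjusted p under 0.05. INSR, the insulin receptor, measured 32.4, 60.2, 73.9, 86.1 and 154 against 70.5, 162, 164, 175 and 433, or -1.24 (SE 0.443, limma adjusted p 0.885). Most of its low RFI values lay under the median of their array. IGFBP2, a plasma carrier of insulin-like growth factors, measured 1063, 1272, 1777, 2078 and 3475 against 2469, 2516, 3526, 3788 and 4935, or -0.91 (SE 0.39; limma adjusted p 0.948). The groups overlapped in both genes. IGF1 measured 0.51 (SE 0.275, limma adjusted p 0.962). With the replicate block its SE was 0.155 and its unadjusted limma p 0.00436. In that fit 1 gene of the axis was higher and 2 were lower at an unadjusted p under 0.05.

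Energy and lipid metabolism showed little beyond single genes. Of 24 amino acid catabolism genes 17 were below 0 and 2 had an unadjusted p under 0.05, BCAT1 and GOT1. With the replicate block 3 did so, all lower in the low line. GOT1, the cytosolic aspartate aminotransferase, measured 2619, 3824, 4254, 4517 and 4764 against 5117, 5515, 5627, 5678 and 6119, or -0.52 (SE 0.187; limma adjusted p 0.901), without overlap, and -0.56 (SE 0.187) under restriction. In the TCA cycle and pyruvate dehydrogenase list, 2 of 24 had an unadjusted p under 0.05: PDHA1, a subunit of pyruvate dehydrogenase, at -0.71 (SE 0.249; limma adjusted p 0.869) without overlap, and IDH3A, a subunit of isocitrate dehydrogenase, at -0.42. In fatty acid oxidation 1 of 26 did so. That was ECI2, an isomerase for unsaturated fatty acids, which measured 1416, 1720, 2991, 3445 and 3539 against 3586, 3637, 4048, 4634 and 4718, without overlap. Its difference was -0.74 (SE 0.267; limma adjusted p 0.901), and it was -0.61 (SE 0.267) under restriction and -0.61 (SE 0.292) in backfat. In ad libitum liver it was -1.4 with numbers 1 and 2 against -0.3 with numbers 3 to 5. Low RFI numbers 1 and 2 were the lowest of their group each time. They read 1720 and 1416 in ad libitum liver, 1282 and 1286 in restricted liver, and 730 and 348 in backfat.

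Lists of the large housekeeping complexes lay at 0. Of 58 oxidative phosphorylation genes 0 had an unadjusted p under 0.05 (1 with the block, ATP5I, at -1.21) and the median was -0.01, and of 57 cytosolic ribosomal proteins 0 did so, with a median of 0.01. Of 12 fatty acid synthesis genes 0 had an unadjusted p under 0.05. FASN, the fatty acid synthase, measured -0.11 (SE 0.395), ACACA, which supplies its malonyl units, -0.14 (SE 0.847), and SCD, a desaturase, 0.26 (SE 0.473). FASN was -1.06 with numbers 1 and 2 and 0.53 with numbers 3 to 5, SCD was -0.39 and 0.69, and ACACA was -0.44 and 0.06. FASN and ACACA also lay above 0 with array weights, at 0.15 and 0.46. The standard errors of all 3 exceeded the median of 0.213 over all probe sets. The median of the list was -0.05, and it was -0.42 with numbers 1 and 2 against 0.32 with numbers 3 to 5. CYP7A1, the entry enzyme of bile acid synthesis, measured 474, 1133, 1617, 2269 and 3631 against 1446, 2862, 3555, 4489 and 7080, or -1.21 (SE 0.639; limma adjusted p 0.962), with wide overlap.

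**Figure D4:**
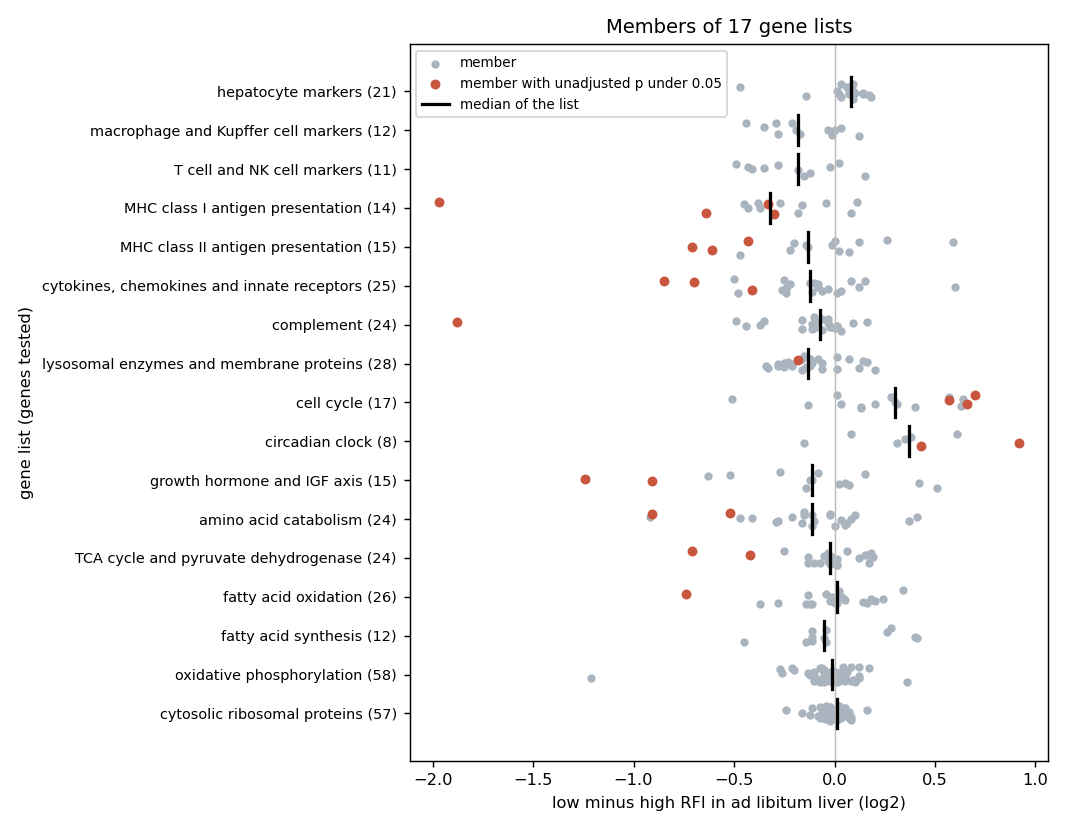
Low minus high RFI in ad libitum liver (horizontal axis, log2) for the tested members of 17 gene lists (vertical axis, number of genes tested in brackets); grey points are members, red points members with an unadjusted limma p under 0.05, and black bars list medians. The bars lie at -0.32 for MHC class I, 0.30 for cell cycle and 0.37 for clock genes, and within 0.2 of 0 for the other 14 lists.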

How the data were processed

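Per the labels, total RNA was labelled with biotin and hybridised to Affymetrix porcine arrays. The authors deposited 1 table of linear array intensities, and the submitters' processing notes name affy and MAS5. The table holds 24123 probe sets. From it, 124 control probe sets were left out, and 10069 of the 23999 others carry exactly 1 gene symbol, 198 several and 13732 none in the platform annotation. MAS5 scales each array as a whole, and values were compared between arrays for 1 probe set. Intensities of different probe sets were not read as relative amounts of RNA. Brightness served only to choose a probe set for each gene and to mark low signal.

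Log2 values of all 20 liver arrays (4 groups) were fitted with limma 3.58.1 in R 4.3.3 (lmFit, and eBayes with an intensity trend), with the contrast low minus high RFI, for 15677 probe sets above the 40th percentile of their array on at least 5 arrays. P-values were adjusted by Benjamini-Hochberg over all of them, with a threshold of 0.05. Backfat was fitted in the same way on its own 20 arrays. The line differences of the 2 tissues were compared in 1 fit of all 40 arrays, without a term for the gilt. Single measures were tested by exact permutation (scipy 1.17.1). The script was tested on simulated data.

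Named genes are the 20 with the smallest p, the 2 members of each list with the smallest p, 24 fixed metabolic genes of which 18 were tested, and the 5 unnamed probe sets with the smallest p, with any others said to be picked later. The members and lists were chosen with earlier results of these data known.

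Same-numbered ad libitum arrays of the lines deviated together, with correlations of 0.123 to 0.287 over probe sets, and all but low RFI array 4, which correlated best with high RFI array 5, correlated best with their own number. By the rule that every pair exceed 0.1 the numbers were taken to pair the arrays. The fit reported has no block, and block values are given for some of the results they change. What the numbers stand for is not given in the sources used here. Alternatives covered normalization, filter, offset, trend, array weights, block, sets of numbers and each array left out. No nucleotide sequences or genome coordinates were used here.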

Additional observations from a re-analysis of the deposited data

Results flagged for a closer look

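Among the 125 named probe sets, 250 groups of 5 arrays were tested for an array far from the other 4 of its line, and 14 were found; chance gives about 1 in 20 groups. In the low line the far arrays were low RFI gilt 4 at PON3 (10288, the others 968 to 1288), gilt 2 at Ssc.26514.1.A1_at (7322, the others up to 91.6), gilt 1 at GSTM3, a glutathione transferase (605, the others 63.2 to 116), gilt 5 at ME1, the malic enzyme that supplies NADPH (605, the others 254 to 326), and gilt 3 at ELANE, neutrophil elastase (65.6, the others 105 to 120). In the high line, gilt 1 was far at FKBP5 (947, the others 350 to 465) and at IGFBP1, an insulin-repressed carrier (1333, the others 10199 to 13673). High RFI gilt 4 was far at PDHA1 (2927, the others 1309 to 1645) and at ATP5I, a subunit of ATP synthase (238, the others 998 to 1483). High RFI gilt 3 was far at APOA2 (18090, the others 25016 to 26701), CYP3A29 (17349, the others 24568 to 26323) and Ssc.16671.1.S1_at (5242, the others 3080 to 3554). High RFI gilt 5 was far at OAS1, an interferon-induced gene (698, the others 274 to 317), and gilt 2 at RPLP2, a ribosomal protein (8189, the others 6410 to 6878).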

How the results depend on the processing

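The count of 0 probe sets past the adjusted threshold in limma was 0 again with quantile normalization, no filter, the stricter filter, the offset, no trend, array weights, the replicate block and the 10 ad libitum arrays alone. It was 1 with numbers 1 and 2 only (PON3), 2 with numbers 3 to 5 only (Ssc.19533.1.S1_at and Ssc.26514.1.A1_at) and 1 with a term for the sets of numbers (ACP5). Leaving out single arrays gave 0 to 1: without low RFI gilt 1 Ssc.19471.1.A1_at, without gilt 2 Ssc.26514.1.A1_at, without gilt 4 PON3 and without gilt 5 Ssc.7706.1.A1_at. The cause was not tested. The line by diet count of 0 became 0 to 1 with single arrays left out (1 without low RFI gilt 3), and the line by tissue count was 0 in all settings run. The replicate block gave 0 calls in all 3 tests, with 1219, 824 and 621 probe sets at an unadjusted p under 0.05 against 786, 525 and 347, and changed no other call at the adjusted threshold. Of 2740 recomputed values of named probe sets 43 turned direction, in 17 genes. With numbers 1 and 2 only, LOC396781 was 0.07, NCF1 0.35, CLDN4 -0.11, ABCB11 -0.08, CRAT 0.10, DNAJA1 -0.04, SCD -0.39, SREBF1 0.17, LPIN1 -0.16, PDK4 0.15, PCK1 0.13, IGFBP1 1.05 (-0.63 with all numbers) and GHR 0.00. With numbers 3 to 5 only, JCHAIN was -0.38, FASN 0.53, ACACA 0.06 and ACSS2 0.49. With array weights JCHAIN was -0.10, FASN 0.15, ACACA 0.46, SREBF1 0.08 and ACSS2 0.10. With single arrays left out, JCHAIN ranged from -0.23 to 0.38, FASN from -0.32 to 0.22, ACACA from -0.69 to 0.41, SREBF1 from -0.22 to 0.11, ACSS2 from -0.23 to 0.23, PDK4 from -0.11 to 0.02 and GHR from -0.23 to 0.06. Of 966 list medians 9 moved by more than 1 SD, all within the sets of numbers and in 6 lists. With numbers 1 and 2 only, medians were 0.49 for neutrophil markers, -1.75 for paraoxonases, -0.28 for triglyceride synthesis, -0.31 for cholesterol synthesis and -0.15 for heat shock proteins. With numbers 3 to 5 only they were 0.09, 0.26 and 0.13 for the last 3, and -0.42 for interferon-stimulated genes. The number of arrays limits the precision.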
